A study of Rattus norvegicus with 20 samples.

Results

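The genes described here are the nuclear-encoded subunits of the mitochondrial respiratory chain and of ATP synthase, measured in microglia, the macrophages that reside in the brain, from rat cortex. Members were chosen by symbol alone: names starting with NDUFA, NDUFB, NDUFC, NDUFS or NDUFV (without the NDUFAF assembly factors), UQCR, COX4I, COX5, COX6, COX7, COX8 or ATP5, together with SDHA, SDHB, SDHC and SDHD. The rule found 81 of the 17310 symbols in the table: 36 of complex I, 4 of complex II, 8 of complex III, 16 of complex IV and 17 of complex V. RNA sequencing covered 20 libraries, 4 in each of 5 groups: PBS, morphine at 1 uM, LPS at 1 ng/mL, PAM3CSK4 at 1 ng/mL and zymosan at 100 ug/mL. LPS is bacterial endotoxin, an agonist of Toll-like receptor 4, whereas PAM3CSK4 is a synthetic lipopeptide and zymosan a yeast cell wall preparation, both sensed through Toll-like receptor 2. Every group, the PBS controls included, was made from male rats of the Sprague-Dawley strain at 21 days of age, whose brain myeloid cells were purified by immunopanning on CD11b and had been in serum-free culture for 5 days, so that all values describe postnatal microglia outside the brain. The length of treatment is not stated in the labels. Nothing in the labels ties the 4 libraries of a group to separate animals or cultures, so the p-values below reflect the spread between libraries, which may be only technical.

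Complex I (NADH dehydrogenase) and complex II (succinate dehydrogenase) pass electrons to ubiquinone, complex III passes them to cytochrome c, and complex IV (cytochrome c oxidase) passes them to oxygen. Complexes I, III and IV pump protons as they do so, and complex V (ATP synthase) uses the returning protons to make ATP. Most subunits are encoded in the nucleus and imported, and a few catalytic ones are encoded in mitochondrial DNA. Macrophages given endotoxin are widely known to shift from oxidative phosphorylation towards glycolysis, and succinate dehydrogenase is a known control point in that response.

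Many nuclear-encoded subunit genes are known to be driven by the transcription factors NRF1, GABP (an ETS family factor) and YY1, and their core motifs were therefore looked for in the 250 bases before the annotated start, in RefSeq sequence of assembly GRCr8. Of the 81 genes, 64 matched RefSeq by symbol and 17 by synonym, and 69 had a promoter entry. The letters searched, on both strands, were GCGCA and GCGC with any 1 base between them for NRF1, CCGGAAG for ETS factors and AAGATGG for YY1. The windows of 4 genes, picked after their values were seen, are shown as examples of NRF1 letters (SDHA), ETS letters (SDHB), ETS and YY1 letters (UQCRC2) and none of them (UQCR10); capitals mark motif matches, and no matches overlap. Each is written in the direction of the gene. SDHA lies at chr1:30764303-30764552 on the plus strand, SDHB at chr5:158547684-158547933 on the plus strand, UQCRC2 at chr1:184598990-184599239 on the plus strand and UQCR10 at chr14:83791915-83792164 on the minus strand.
SDHA: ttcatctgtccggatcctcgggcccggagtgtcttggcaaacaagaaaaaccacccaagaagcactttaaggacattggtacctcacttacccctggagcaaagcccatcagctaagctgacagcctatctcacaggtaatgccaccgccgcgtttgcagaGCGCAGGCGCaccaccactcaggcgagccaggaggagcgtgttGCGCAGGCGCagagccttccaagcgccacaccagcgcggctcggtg
SDHB: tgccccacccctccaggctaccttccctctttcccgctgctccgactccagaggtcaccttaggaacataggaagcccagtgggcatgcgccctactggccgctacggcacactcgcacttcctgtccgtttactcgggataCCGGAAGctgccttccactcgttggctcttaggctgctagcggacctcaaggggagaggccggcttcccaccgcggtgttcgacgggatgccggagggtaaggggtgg
UQCRC2: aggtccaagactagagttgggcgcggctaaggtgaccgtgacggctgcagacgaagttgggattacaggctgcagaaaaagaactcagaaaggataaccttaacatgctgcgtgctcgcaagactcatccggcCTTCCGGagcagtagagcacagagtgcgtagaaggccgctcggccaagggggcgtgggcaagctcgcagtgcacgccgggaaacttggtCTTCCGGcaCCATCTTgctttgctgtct
UQCR10: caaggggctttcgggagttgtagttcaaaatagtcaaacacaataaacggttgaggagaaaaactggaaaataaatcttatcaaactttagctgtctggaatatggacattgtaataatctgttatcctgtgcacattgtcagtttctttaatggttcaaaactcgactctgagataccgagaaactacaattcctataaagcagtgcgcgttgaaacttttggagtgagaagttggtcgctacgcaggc
The SDHA window held 2 NRF1 matches, SDHB held 1 ETS match, UQCRC2 held 2 ETS matches and 1 YY1 match, and UQCR10 held none of these letters. Of the 66 subunit genes that were tested and had a promoter entry, 28 (42.4%) held at least 1 of the 3 motifs, against 30.2% of the promoters of all tested genes and 15.2% of all promoters. NRF1 letters were in 16.7% of the subunit promoters, 10.7% of tested genes and 4.17% of all promoters. For the ETS letters the shares were 27.3%, 18.4% and 7.74%, and for the YY1 letters 4.55%, 4.63% and 4.63%. A match describes these letters only, not binding.

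Values are FPKM, in which fragment counts are divided by transcript length and by the mapped fragments of each library, so levels can be compared between genes. Of the 81 subunit genes, 76 were tested because they reached 1 FPKM in at least 4 libraries: 35 of complex I, all 4 of complex II, all 8 of complex III, 12 of complex IV and all 17 of complex V. COX8B, COX8C, NDUFA4L2 and the pseudogene COX6C-PS1 were listed at 0 in every library, and COX4I2, the hypoxia-linked form of complex IV subunit 4, stayed at 0.227 FPKM or below. The subunit genes were abundant transcripts. Their median mean level was 85.6 FPKM against 8.85 FPKM over all 8858 tested genes, and 49 of the 76 were in the top 10% of tested genes. ATP5B, the catalytic beta subunit of ATP synthase, had the highest mean, 440.6 FPKM. Together the subunit genes made up 2.56% ± 0.407 (SD, n = 4) of all FPKM with PBS, 2.86% ± 0.69 (SD, n = 4) with morphine, 2.06% ± 0.534 (SD, n = 4) with LPS, 1.97% ± 0.452 (SD, n = 4) with PAM3CSK4 and 2.03% ± 0.357 (SD, n = 4) with zymosan.

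For subunits 4, 6A and 8 of complex IV, the widely expressed isoform had the higher level. COX4I1 ranged from 192 to 391 FPKM over the libraries and COX6A1 from 223 to 604 FPKM, while COX6A2, the heart and muscle form of subunit 6A, stayed between 0 and 12.5 FPKM. COX6B2, a testis form of subunit 6B and the only gene of that subunit analysed here, stayed between 0 and 3.22 FPKM. COX8A ranged from 149 to 533 FPKM, while COX8B and COX8C were listed at 0. NDUFA4, today assigned to complex IV, ranged from 45.1 to 168 FPKM. The 3 genes for the c subunit of ATP synthase, which encode the same mature protein, were all expressed, ATP5G1 from 65.2 to 226 FPKM, ATP5G2 from 146 to 445 FPKM and ATP5G3 from 73.8 to 207 FPKM; reads shared between such related copies, or with processed pseudogenes, could have been split by the authors' counting, so their separate levels are uncertain. ATP5S and ATP5SL carry the prefix but are named Dmac2l and Dmac2 in RefSeq, and are not subunits of ATP synthase.

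The culture was checked against fixed marker lists. The 12 microglial and macrophage markers had a summed level of 2597 to 3519 FPKM in the PBS and morphine libraries and 1747 to 2631 FPKM in the agonist libraries. Of them 9 stayed above 1 FPKM in every library, whereas CX3CR1 fell to 0, P2RY12 to 0 (median 0.455 FPKM) and C1QA to 0.1 FPKM in the lowest library. Astrocyte markers summed to at most 4.52 FPKM in any library, with GFAP and AQP4 at 0 throughout. The neuronal list summed to 1.11 to 6.59 FPKM with PBS or morphine and 9.51 to 25.5 FPKM with the agonists, mostly TUBB3, with RBFOX3, SYT1 and STMN2 at 0 in every library. Oligodendrocyte markers summed to 9.17 to 37.6 FPKM. CNP (5.77 to 28.5 FPKM) and MBP (1.94 to 10.65 FPKM) were present in every library, and MAG and MOBP were at 0. Endothelial and pericyte markers summed to 5.24 to 19.8 FPKM, with FLT1 at 3.77 to 19.3 FPKM and CLDN5 and RGS5 at 0. Lymphocyte and neutrophil markers summed to at most 5.83 FPKM, with S100A8 reaching 4.92 FPKM and CD3E, MS4A1, MPO and ELANE at 0. In bulk RNA, fewer cells of a type and less RNA per cell cannot be told apart, and the part these markers have in the results below was not tested.

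The libraries did not vary evenly around their group means. After the group means were removed, the first principal component held 63.2% of the remaining variance and set 7 libraries apart from the other 13: replicate 1 of every group, replicate 2 of the morphine group and replicate 2 of the LPS group. The labels give no batch that corresponds to this split. It touched the respiratory chain genes strongly. Their levels were higher in the 7-library set for 60 of 76 genes, by a median of 0.54 on the log2(FPKM + 1) scale, whereas the median over all tested genes was lower there by 0.36 (log2 difference -0.36). All 12 tested complex IV genes were higher in the 7-library set, from 0.16 for COX7A2L to 0.92 for COX8A. The other 16 genes were lower in the 7-library set. The largest log2 differences were those of NDUFS1 (-1.42), SDHA (-0.92), UQCRC2 (-0.68), ATP5A1 (-0.60), ATP5B (-0.52) and UQCRC1 (-0.48).

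**Figure D1:**
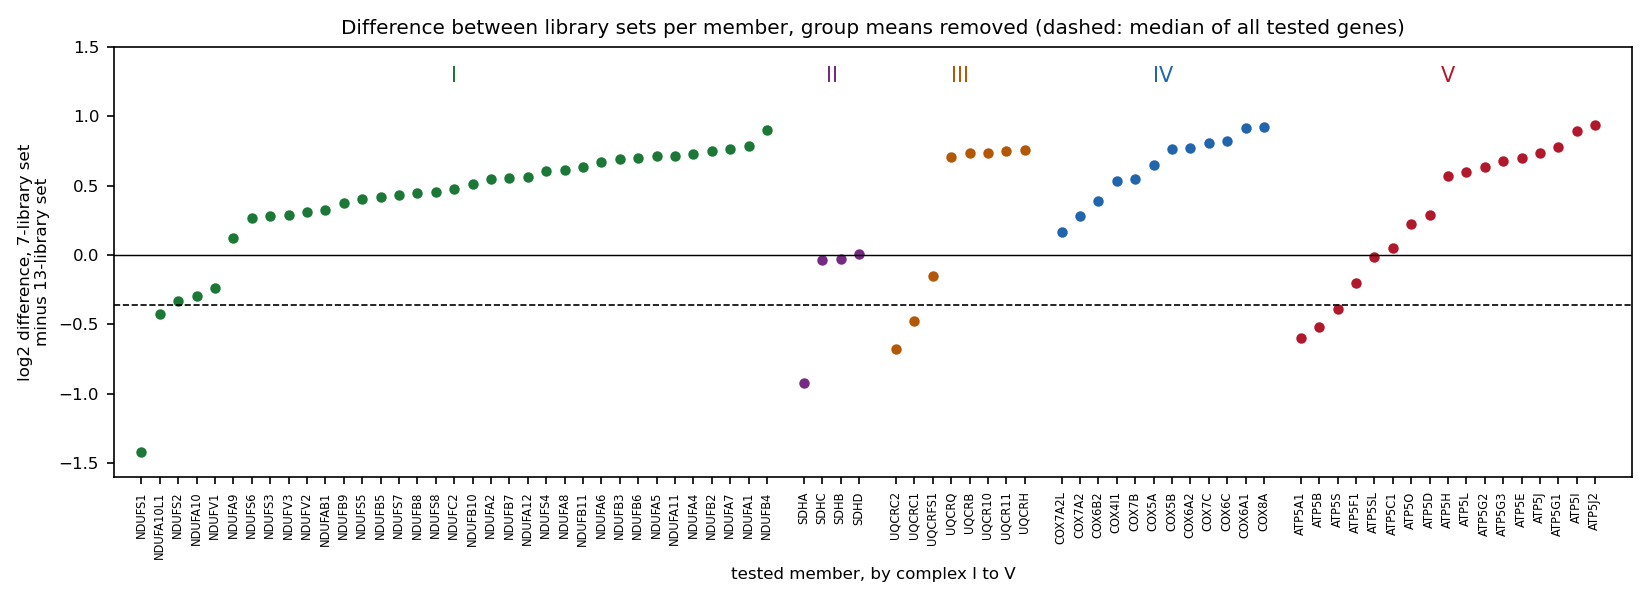
Difference in mean log2(FPKM + 1) between the 7-library and 13-library sets, after group means were removed, for each of the 76 tested genes, ordered within complexes I to V. The points run from -1.42 (NDUFS1) to 0.93 (ATP5J2), 60 lie above 0, and the dashed line at -0.36 is the median of all tested genes.

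COX6A1 shows the pattern in single libraries. Its level was 583, 332, 292 and 289 FPKM in PBS replicates 1 to 4, and 604, 552, 281 and 336 FPKM in the morphine libraries. It was 451, 429, 245 and 223 FPKM with LPS, 476, 283, 238 and 246 FPKM with PAM3CSK4, and 513, 266, 258 and 292 FPKM with zymosan. In each group the library or libraries of the 7-library set were the highest, and within the 13-library set the PBS and morphine libraries (281 to 336 FPKM) overlapped the agonist libraries (223 to 292 FPKM). NDUFS1, the largest subunit of complex I and a carrier of iron-sulfur clusters, had the opposite order. It was 18.1, 36.5, 32.7 and 31.7 FPKM in PBS replicates 1 to 4, 8.52, 6.83, 19.4 and 21.9 FPKM with LPS, 3.39, 21.0, 25.2 and 23.5 FPKM with PAM3CSK4, and 9.65, 28.9, 25.8 and 22.7 FPKM with zymosan. The 7-library set held the lowest value of every group. For 60 of the tested subunit genes, the FPKM values could be written as whole fragments times 1 step per library, which gives a relative transcript length up to a whole multiple. Across these 60 genes, which share libraries, Spearman's rho between that length and the set difference was -0.53, and the 20 with the shortest estimates all lay above 0. This describes the genes and was not tested as a cause.

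**Figure D2:**
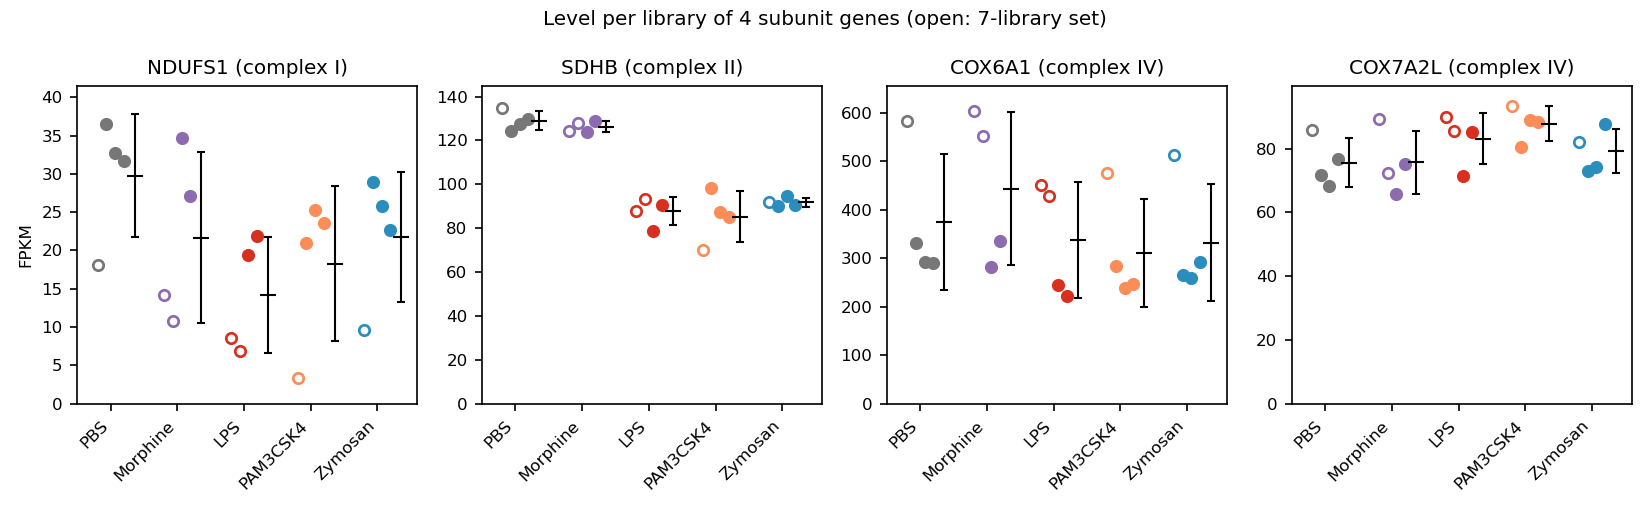
FPKM of NDUFS1, SDHB, COX6A1 and COX7A2L in each of the 20 libraries by treatment group; points are libraries (open for the 7-library set, filled for the 13-library set), and bars are the mean ± SD of 4 libraries. NDUFS1 is lowest and COX6A1 highest in open points, while every agonist library of SDHB lies below every PBS library and COX7A2L overlaps between groups.

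Because of this split, the counts of called subunit genes against PBS are given for the values as deposited and also with the set as a term in the fit and within the 13-library set alone; single genes are given as deposited unless another fit is named. The sets were defined from the data, so p-values with the set term may be too small. FPKM is also relative to each library's total: the median of all tested genes was -0.37 (LPS), -0.27 (PAM3CSK4) and -0.18 (zymosan) on the log2 scale against PBS, and changes are therefore also given after median-ratio rescaling, which sets the typical gene to no change.

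The question of the first comparisons is what the Toll-like receptor agonists did to the subunit genes. As deposited, every subunit gene that was called against PBS with an agonist was lower. With LPS, 30 of 76 (39.5%) were called lower, that is, with an adjusted p under 0.05 in limma, where 27.3% of all tested genes were called lower; none was called higher, against 5.02% of all genes. With PAM3CSK4, 27 of 76 (35.5%) were called lower, against 22.6% of all tested genes, and none higher, against 5.62%. With zymosan, 9 of 76 (11.8%) were called lower, a smaller share than the 14.2% of all tested genes, and none higher, against 4.66%. The medians over the subunit genes were -0.46, -0.44 and -0.31 on the log2 scale, and 5 genes had values above 0 with all 3 agonists, none of them called (ATP5D, COX7A2L, NDUFA7, NDUFS6 and UQCR10). Same-numbered libraries deviated from their group means together for PBS, PAM3CSK4 and zymosan. With the replicate number as a block, 42 genes (55.3%) were called lower with PAM3CSK4, against 32.3% of all tested genes, and 27 (35.5%) with zymosan, against 22.1%; none was called higher, against 8.5% and 7.5%. There were 9 genes called lower with all 3 agonists: NDUFA9, NDUFS3, NDUFV1 and NDUFV2 of complex I, SDHB and SDHD of complex II, UQCRFS1 of complex III, and ATP5C1 and ATP5O of complex V. LPS and PAM3CSK4 shared 25 calls, which is 25 of 30 for LPS and 25 of 27 for PAM3CSK4, and all 9 zymosan calls were among those for LPS; the 3 comparisons use the same PBS libraries.

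**Figure D3:**
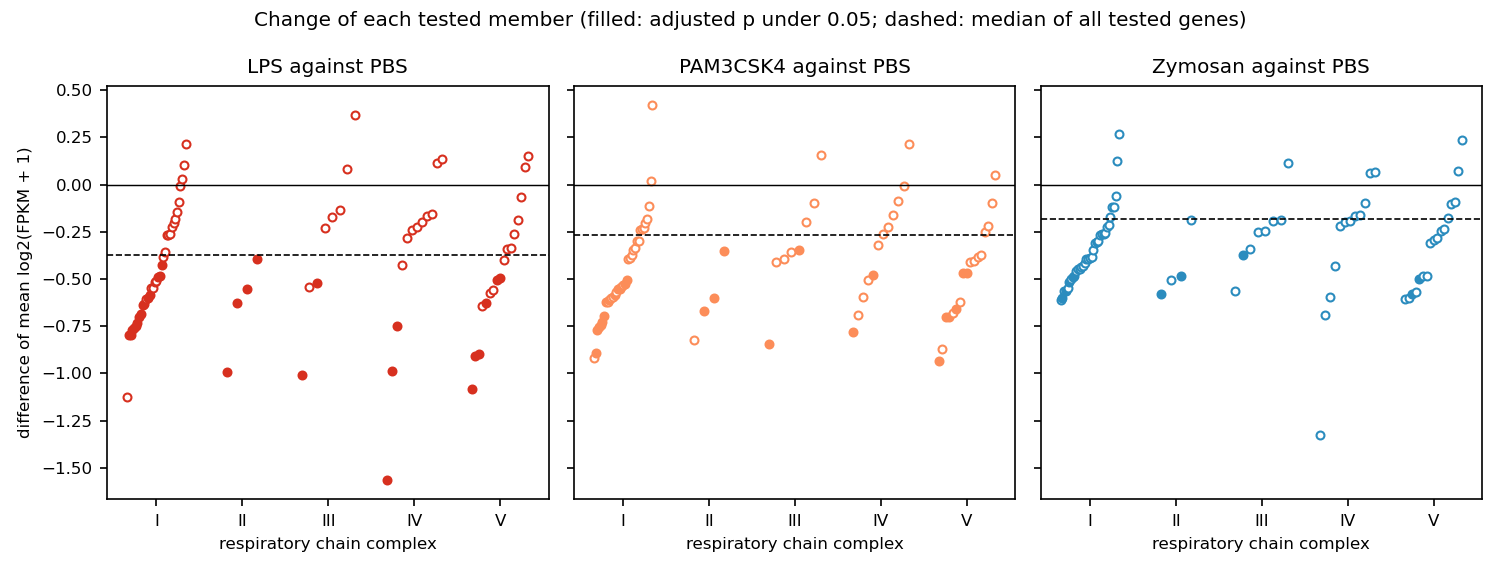
Difference from PBS in mean log2(FPKM + 1) for the 76 tested genes with LPS, PAM3CSK4 and zymosan, grouped by complex I to V; filled points are called (adjusted p under 0.05), open points are not, and the dashed line is the median of all tested genes (-0.37, -0.27 and -0.18). Filled points lie only below 0, 30, 27 and 9 in number, and all 4 complex II genes are filled for LPS.

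With the library set as a term, 62 (81.6%), 57 (75%) and 41 (53.9%) of the 76 genes were called lower with LPS, PAM3CSK4 and zymosan, against 40.6%, 40.4% and 28.4% of all tested genes, and 0, 1 and 0 were called higher, the 1 being COX7A2L, against 9.74%, 10.5% and 9.56% of all tested genes. In the 13-library set alone, which has 2 LPS libraries and 3 of each other group compared, 59, 49 and 37 were called lower, against 38%, 36.6% and 29.3% of all tested genes. After rescaling without the set term, 4, 3 and 0 were called lower, against 13.5%, 13.4% and 9.16% of all tested genes, none was called higher, against 12.3%, 12.1% and 8.29%, and the subunit medians were -0.02, -0.13 and -0.12. The 4 with LPS were ATP5A1, ATP5B, COX6B2 and UQCRC2, and the 3 with PAM3CSK4 were ATP5A1, ATP5B and UQCRC2. With both rescaling and the set term, an analysis chosen after the data were seen, 27, 23 and 17 were called lower, against 20.7%, 21.3% and 15.8% of all tested genes. In that analysis 4, 4 and 3 were called higher, against 21%, 21.6% and 16.4%: ATP5D, COX7A2L and UQCR10 with every agonist, and NDUFA7 with LPS and PAM3CSK4.

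**Figure D4:**
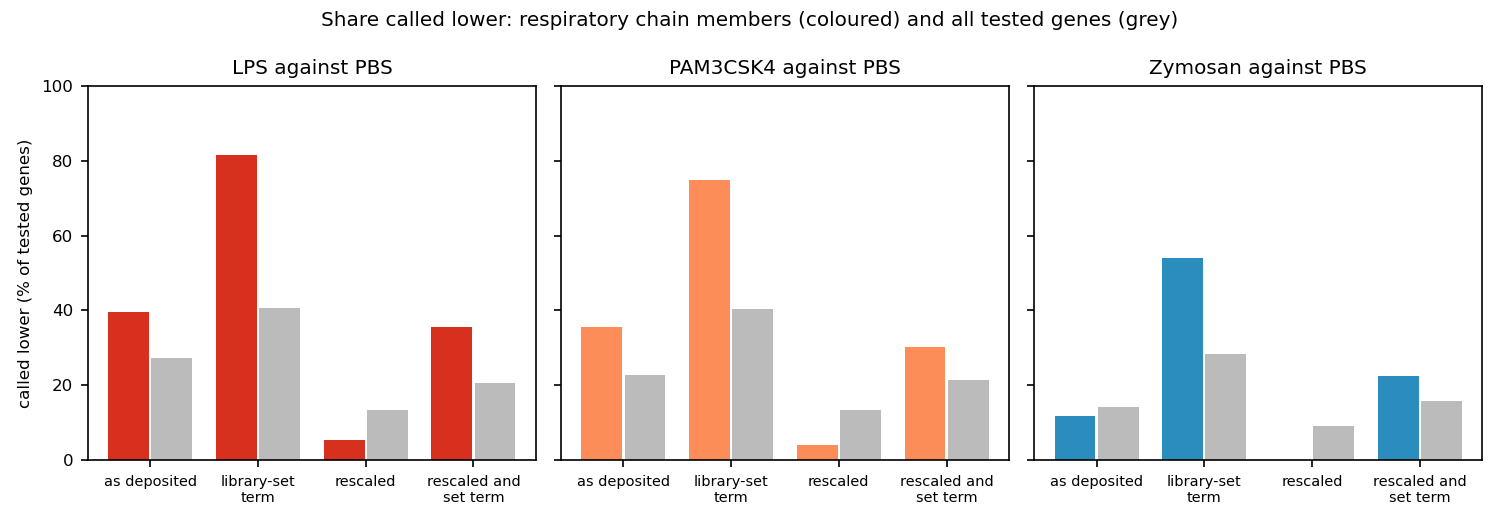
Share of the 76 tested subunit genes (coloured bars) and of all 8858 tested genes (grey bars) called lower against PBS with LPS, PAM3CSK4 and zymosan, for values as deposited, with the library-set term, after rescaling, and with both. The coloured bars run from 0% (zymosan, rescaled) to 81.6% (LPS, set term) and exceed the grey ones except for zymosan as deposited and for all 3 agonists after rescaling alone.

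Libraries were also compared without a model. The 4 LPS libraries lay wholly below the 4 PBS libraries for 27 of 76 subunit genes, against 26.3% of all tested genes. This held for 28 with PAM3CSK4, against 24.2%, and for 21 with zymosan, against 19.9%, where limma had called 9. No subunit gene lay wholly above PBS with an agonist, against 5.18%, 5.83% and 6.24% of all tested genes.

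Complex II fell as a whole with LPS. It oxidises succinate to fumarate and is the only complex with no subunit encoded in mitochondrial DNA. The summed level of its 4 genes was 449 ± 11.7 FPKM with PBS, 304 ± 21.1 FPKM with LPS, 307 ± 36.9 FPKM with PAM3CSK4 and 339 ± 15.1 FPKM with zymosan (SD, n = 4 each). The lowest PBS sum, 439.9 FPKM, was above the highest agonist sum, 350.4 FPKM. All 4 genes were called lower with LPS, 3 with PAM3CSK4 (4 with the replicate block) and 2 with zymosan, against 27.3%, 22.6% and 14.2% of all tested genes. With the set term all 4 were called lower with LPS and PAM3CSK4 and 3 with zymosan, against 40.6%, 40.4% and 28.4%.

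SDHB, the iron-sulfur subunit, was lower in every agonist library than in any PBS library. It was at 135, 124, 127 and 130 FPKM in PBS replicates 1 to 4. With LPS it was at 87.7, 93.4, 78.8 and 90.8 FPKM, with PAM3CSK4 at 70.2, 98.5, 87.5 and 84.9 FPKM, and with zymosan at 91.8, 90.0, 94.8 and 90.7 FPKM. SDHB fell by 0.56 ± 0.10 (SE) on the log2 scale with LPS (limma adjusted p = 0.0004), by 0.60 ± 0.10 with PAM3CSK4 (adjusted p = 0.00021) and by 0.49 ± 0.10 with zymosan (adjusted p = 0.0022). SDHD, a membrane anchor of the complex, went from 109 to 123 FPKM with PBS to 68.7 to 85.7 FPKM with LPS, 59.0 to 79.7 FPKM with PAM3CSK4 and 69.4 to 82.6 FPKM with zymosan, changes of -0.62, -0.67 and -0.58 (adjusted p = 0.00047, 0.00027 and 0.0015). SDHC, the other anchor, went from 145 to 154 FPKM to 99.2 to 127 FPKM with LPS and 108 to 123 FPKM with PAM3CSK4 (-0.39 and -0.35, adjusted p = 0.0054 and 0.013). With zymosan it was at 119 to 144 FPKM, below every PBS library but not called (-0.19, adjusted p = 0.23). SDHA, the flavoprotein that holds the active site, fell by 0.99 ± 0.34 with LPS (adjusted p = 0.032) and was not called with PAM3CSK4 (-0.82, adjusted p = 0.081, and 0.011 with the replicate block) or zymosan (-0.50, adjusted p = 0.37). Its PBS libraries were at 36.9, 62.1, 60.9 and 61.3 FPKM and its LPS libraries at 22.8, 17.0, 34.1 and 38.0 FPKM, so the group spread was mainly that between the library sets, and with the set term it was called lower with each agonist (-0.76, -0.82 and -0.50, adjusted p = 6.6e-05, 2.6e-05 and 0.0038). After rescaling, none of the 4 was called with any agonist. With rescaling and the set term SDHA, SDHB and SDHD were called lower with all 3 agonists, and SDHC was at -0.05, -0.03 and 0.02. The promoters of SDHA and SDHB printed above carry different motifs, NRF1 and ETS.

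**Figure D5:**
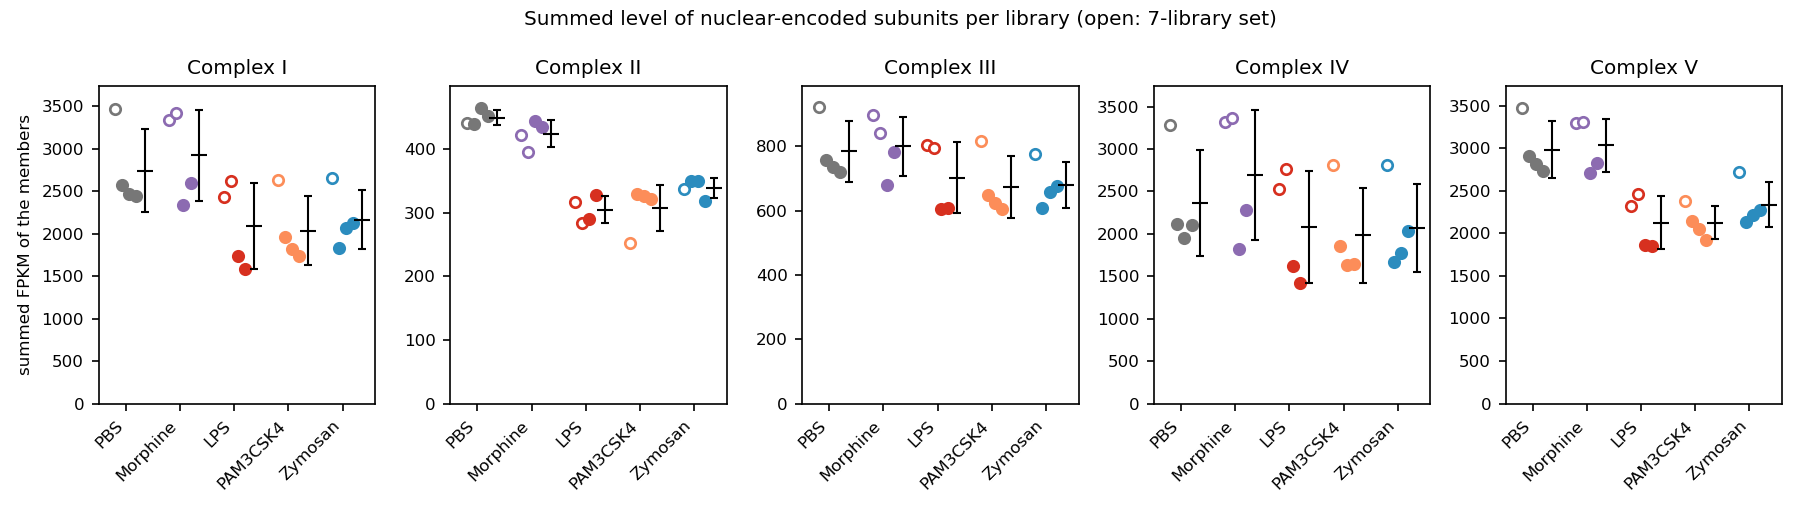
Summed FPKM of the subunit genes of complexes I to V in each library by treatment group; open points belong to the 7-library set, filled points to the 13-library set, and bars are the mean ± SD of 4 libraries. Complex II is the one in which no open point is the highest of its group, and its agonist libraries (252.3 to 350.4 FPKM) lie below all PBS libraries (439.9 to 464.7 FPKM).

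Complex I genes were lower with LPS and PAM3CSK4, with the sums of the group dominated by the library sets. Its summed level was 2741 ± 487.6 FPKM with PBS, 2095 ± 508.8 FPKM with LPS, 2036 ± 406.6 FPKM with PAM3CSK4 and 2168 ± 345.4 FPKM with zymosan (SD, n = 4). Within the 13-library set the sums were 2449 to 2574 FPKM with PBS, 1590 to 1735 FPKM with LPS, 1735 to 1960 FPKM with PAM3CSK4 and 1833 to 2121 FPKM with zymosan. Of 35 tested genes 15 (42.9%) were called lower with LPS, 14 (40%) with PAM3CSK4 and 4 (11.4%) with zymosan, against 27.3%, 22.6% and 14.2% of all tested genes. The zymosan share was thus under that of all tested genes. The complex I medians were -0.51, -0.53 and -0.39.

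Core subunits were among the called genes. NDUFS3, a core subunit of the peripheral arm, was at 60.9, 49.2, 43.1 and 48.2 FPKM with PBS and at 36.6, 27.5, 27.4 and 23.2 FPKM with LPS. Its PAM3CSK4 libraries were at 37.2, 28.4, 29.5 and 25.1 FPKM and its zymosan libraries at 31.6, 33.2, 32.8 and 33.1 FPKM. All 12 agonist values were below the lowest PBS value. NDUFS3 fell by 0.80 ± 0.15, 0.73 ± 0.15 and 0.60 ± 0.15 (limma adjusted p = 0.00057, 0.0014 and 0.0092). NDUFV1, which binds NADH and the flavin, was at 48.9 to 58.2 FPKM with PBS, 23.5 to 35.3 FPKM with LPS, 23.4 to 41.4 FPKM with PAM3CSK4 and 33.1 to 39.2 FPKM with zymosan, changes of -0.77, -0.62 and -0.52 (adjusted p = 0.002, 0.01 and 0.041). NDUFV2, its iron-sulfur partner, was at 65.9 to 90.3 FPKM with PBS, 41.0 to 50.1 FPKM with LPS, 41.1 to 58.6 FPKM with PAM3CSK4 and 45.2 to 54.0 FPKM with zymosan, changes of -0.69, -0.58 and -0.56 (adjusted p = 0.0014, 0.0055 and 0.01). NDUFS7 passed the test as deposited with LPS only (-0.48, adjusted p = 0.049), with 54.5 to 94.7 FPKM against 96.0 to 112 FPKM. Its difference between PAM3CSK4 and LPS was not called (0.19, adjusted p = 0.988). With the set term NDUFS7 was called lower with all 3 agonists. NDUFS1 was not called with any agonist (-1.13, -0.92 and -0.49, adjusted p = 0.11, 0.22 and 0.61; with the replicate block 0.043 for PAM3CSK4), and was called with LPS (-0.68) and PAM3CSK4 (-0.52) and zymosan (-0.37) within the 13-library set (adjusted p = 0.0016, 0.004 and 0.028). NDUFS8, another iron-sulfur subunit, was at 63.3 to 90.7 FPKM with PBS and 38.6 to 77.4 FPKM with LPS. It was not called with any agonist as deposited, and was called lower with all 3 agonists with the set term.

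Accessory subunits of complex I gave the largest called falls of this complex with PAM3CSK4. NDUFA9, which stabilises the junction of the arms, was at 66.8 to 80.1 FPKM with PBS, 38.3 to 46.4 FPKM with LPS, 43.0 to 46.9 FPKM with PAM3CSK4 and 45.5 to 59.5 FPKM with zymosan. The groups did not overlap, and NDUFA9 fell by 0.76 ± 0.11, 0.70 ± 0.11 and 0.49 ± 0.11 (limma adjusted p = 4.1e-05, 0.00011 and 0.0043). NDUFAB1, the mitochondrial acyl carrier protein, was at 14.7 to 20.2 FPKM with PBS, 8.02 to 12.1 FPKM with LPS and 8.25 to 11.7 FPKM with PAM3CSK4 (-0.75 and -0.77, adjusted p = 0.0029 and 0.0026). With zymosan it was at 10.9 to 15.9 FPKM (-0.45, adjusted p = 0.088, and 0.011 with the replicate block). NDUFA12 fell with LPS (-0.80, adjusted p = 0.019) and PAM3CSK4 (-0.89, adjusted p = 0.011), from 47.6 to 96.8 FPKM to 28.5 to 46.2 FPKM and 26.0 to 45.4 FPKM. NDUFA8 passed the test with PAM3CSK4 (-0.76, adjusted p = 0.033) but not with LPS (-0.55, adjusted p = 0.11), a difference between agonists that was not itself called. After rescaling no complex I gene was called with any of the 3 agonists. NDUFA7 and the scarce NDUFS6 (0 to 2.26 FPKM) were the complex I genes with values above 0 against PBS with every agonist, and neither was called.

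Complex III genes did not all move alike. UQCRC1, a core protein, was at -0.54 with LPS and was not called with any agonist as deposited. The small subunits UQCRB, UQCRH, UQCRQ and UQCR11 were at -0.23, -0.14, -0.17 and 0.08 with LPS, and were not called either. With the set term UQCRB was called lower with all 3 agonists. The summed level of complex III was 784 ± 94.1 FPKM with PBS and 703 ± 111 FPKM with LPS. It was 673 ± 97.4 FPKM with PAM3CSK4 and 680 ± 70.7 FPKM with zymosan (SD, n = 4). UQCRC2, the other core protein, was at 52.0, 66.7, 73.4 and 72.3 FPKM in PBS replicates 1 to 4. It was at 30.5, 21.7, 36.2 and 43.9 FPKM with LPS, 21.2, 38.5, 48.5 and 42.3 FPKM with PAM3CSK4 and 33.7, 48.4, 50.7 and 45.1 FPKM with zymosan. Every agonist library was below every PBS library, and the 7-library set was low within each group. UQCRC2 fell by 1.01 ± 0.27 with LPS and by 0.85 ± 0.27 with PAM3CSK4 (limma adjusted p = 0.0069 and 0.023), and these calls held after rescaling (-0.58 and -0.54, adjusted p = 0.0056 and 0.01). With zymosan it was not called (-0.57, adjusted p = 0.16, and 0.027 with the replicate block). UQCRFS1, the Rieske iron-sulfur protein, was at 153 to 160 FPKM with PBS, 87.4 to 124 FPKM with LPS, 116 to 132 FPKM with PAM3CSK4 and 111 to 138 FPKM with zymosan. It fell with each agonist (-0.52, -0.34 and -0.37, adjusted p = 0.0027, 0.039 and 0.037) but not after rescaling (-0.09, -0.03 and -0.16). UQCR10, a small subunit, was at 252, 150, 152 and 139 FPKM with PBS and at 274, 295, 172 and 160 FPKM with LPS, and the groups overlapped (0.37, adjusted p = 0.31). With PAM3CSK4 and zymosan its differences were 0.15 and 0.11 (adjusted p = 0.73 and 0.85), and with rescaling and the set term it was called higher with each agonist (0.52, 0.47 and 0.32). Among the promoters printed above, which were picked after values were seen, the UQCRC2 window held ETS and YY1 letters and the UQCR10 window none. Over all subunit genes, with LPS, 5 of 18 genes with the ETS letters were called lower and 22 of 48 without them, and 4 of 11 with the NRF1 letters and 23 of 55 without. The LPS medians were -0.38 with the ETS letters and -0.49 without them, and -0.56 with the NRF1 letters and -0.43 without. A link between the letters and the changes was not tested.

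Complex IV had the smallest median shift of the 5 complexes with PAM3CSK4 and zymosan (-0.29 and -0.19, and -0.23 with LPS). Its sums were 2364 ± 620.3 FPKM with PBS, 2083 ± 660.7 FPKM with LPS, 1983 ± 560.3 FPKM with PAM3CSK4 and 2069 ± 515.1 FPKM with zymosan (SD, n = 4), and within the 13-library set 1947 to 2113 FPKM with PBS and 1421 to 1621 FPKM with LPS. Of 12 tested genes 3 were called lower with LPS (COX6A2, COX6B2 and COX7B), 2 with PAM3CSK4 (COX6B2 and COX7A2) and none with zymosan, shares of 25%, 16.7% and 0% against 27.3%, 22.6% and 14.2% of all tested genes. With the set term 10, 7 and 4 were called lower, against 40.6%, 40.4% and 28.4% of all tested genes. After rescaling the complex IV medians were above 0 (0.20, 0.03 and 0.01), and COX6B2 was the 1 gene called, lower with LPS. COX4I1, a nuclear subunit that joins the assembling enzyme early, was at 391, 278, 247 and 283 FPKM with PBS and 318, 307, 208 and 192 FPKM with LPS (-0.24, adjusted p = 0.39), and was called lower with LPS within the 13-library set (-0.43, adjusted p = 0.0049). COX5A and COX5B, nuclear-encoded subunits, were at 161 to 250 and 152 to 277 FPKM with PBS. With LPS they were at 126 to 228 and 108 to 225 FPKM, with overlap for both. COX6A2 was at 6.38, 5.14, 3.02 and 9.36 FPKM with PBS and at 2.79, 2.33, 0.947 and 0 FPKM with LPS, a fall of 1.57 ± 0.50 (limma adjusted p = 0.022) in a gene of low level, not called after rescaling (-1.22, adjusted p = 0.12). COX7B fell with LPS (-0.75, adjusted p = 0.031), from 93.5 to 143 FPKM to 43.7 to 96.3 FPKM, with overlap between the groups. COX7A2 fell with PAM3CSK4 (-0.48, adjusted p = 0.033), from 222 to 286 FPKM to 158 to 186 FPKM, and its LPS value of -0.43 missed the threshold (adjusted p = 0.052).

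COX7A2L, a relative of COX7A2 that links complexes III and IV into supercomplexes, did not follow. It was at 85.9, 71.7, 68.3 and 76.7 FPKM with PBS. With LPS it was at 89.9, 85.7, 71.5 and 85.2 FPKM, with PAM3CSK4 at 93.5, 80.4, 89.1 and 88.5 FPKM, and with zymosan at 82.1, 72.9, 74.3 and 87.7 FPKM. The groups overlapped, and the differences of 0.13, 0.22 and 0.07 were not called (limma adjusted p = 0.40, 0.20 and 0.79). With PAM3CSK4 the set term gave 0.22 with an adjusted p of 0.048, and the 13-library set alone gave 0.25 with an adjusted p of 0.057. With rescaling and the set term it was called higher with every agonist (0.42, 0.53 and 0.27, adjusted p = 0.00029, 2.2e-05 and 0.012). These values place it among the 12 genes that were not called lower with any agonist under the set term, the others being ATP5D, ATP5S, COX7C, NDUFA5, NDUFA7, NDUFB4, NDUFS5, NDUFS6, UQCR10, UQCR11 and UQCRQ.

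In complex V, the genes called lower with LPS were ATP5A1, ATP5B, ATP5C1, ATP5F1, ATP5O and ATP5SL. The rest were not called, among them ATP5H (-0.26), ATP5J (-0.34), ATP5E (-0.34), the c subunit genes and the delta subunit gene ATP5D. The summed level was 2980 ± 334.6 FPKM with PBS, 2124 ± 313.1 FPKM with LPS, 2127 ± 191.2 FPKM with PAM3CSK4 and 2338 ± 263.4 FPKM with zymosan (SD, n = 4); within the 13-library set it was 2735 to 2906 FPKM with PBS and 1847 to 1868 FPKM with LPS. ATP5C1, the gamma subunit that turns inside the catalytic head, was at 164, 162, 145 and 161 FPKM with PBS and at 89.0, 80.3, 76.7 and 89.2 FPKM with LPS. It was at 89.8, 97.0, 103 and 96.8 FPKM with PAM3CSK4 and at 116, 101, 104 and 99.9 FPKM with zymosan. No agonist library reached a PBS library and the 7-library set did not stand out. ATP5C1 fell by 0.91 ± 0.10 with LPS (limma adjusted p = 1.9e-06), by 0.70 ± 0.10 with PAM3CSK4 (adjusted p = 3.9e-05) and by 0.58 ± 0.10 with zymosan (adjusted p = 0.00042), and after rescaling was not called (-0.47, -0.39 and -0.37, adjusted p = 0.064, 0.14 and 0.19). ATP5A1, the alpha subunit, was at 183, 234, 224 and 209 FPKM with PBS, 94.8, 70.3, 114 and 129 FPKM with LPS and 66.1, 132, 137 and 122 FPKM with PAM3CSK4. Its groups did not overlap, and its falls of 1.08 ± 0.24 and 0.94 ± 0.24 (adjusted p = 0.0022 and 0.0073) were called after rescaling as well (-0.65 and -0.62, adjusted p = 0.0013 and 0.002). ATP5B, the beta subunit, was at 516 to 626 FPKM with PBS, 238 to 395 FPKM with LPS, 231 to 421 FPKM with PAM3CSK4 and 355 to 466 FPKM with zymosan. It fell with LPS and PAM3CSK4 (-0.90 and -0.70, adjusted p = 0.0033 and 0.019), also after rescaling (-0.46 and -0.39, adjusted p = 0.0067 and 0.021). With zymosan neither ATP5A1 (-0.60, adjusted p = 0.098) nor ATP5B (-0.48, adjusted p = 0.13) was called, and with the replicate block both were (adjusted p = 0.027 and 0.033). Of the 17 genes of complex V, 6 (35.3%) were called lower with LPS, 6 with PAM3CSK4 and 2 (11.8%) with zymosan. Over all tested genes 27.3%, 22.6% and 14.2% were called lower. ATP5SL, 1 of the 6 with LPS and with PAM3CSK4, is not a subunit of ATP synthase.

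ATP5O, the stalk subunit that confers oligomycin sensitivity, was at 182 to 238 FPKM with PBS, 115 to 150 FPKM with LPS, 118 to 144 FPKM with PAM3CSK4 and 136 to 162 FPKM with zymosan, and fell with each (-0.63, -0.66 and -0.50, adjusted p = 0.00059, 0.00042 and 0.0063 in limma). ATP5G1, a c subunit gene of the membrane ring, was at 203, 136, 115 and 121 FPKM with PBS and 120, 136, 72.2 and 65.2 FPKM with LPS, and was not called with LPS, PAM3CSK4 or zymosan (-0.58, -0.68 and -0.60, adjusted p = 0.12, 0.079 and 0.16). With the replicate block the adjusted p was 0.002 with PAM3CSK4 and 0.0069 with zymosan. With the set term its differences were -0.77, -0.68 and -0.60 with adjusted p = 1.4e-07, 5.8e-07 and 4.6e-06. ATP5D, the delta subunit of the rotor, was at 230, 186, 188 and 183 FPKM with PBS and 214, 254, 174 and 202 FPKM with LPS, and its differences of 0.10, 0.05 and 0.07 were not called (adjusted p = 0.62, 0.83 and 0.81).

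With morphine none of the 76 subunit genes was called in limma, and 0% of all 8858 tested genes was called in either direction; at an unadjusted p under 0.05 there was 1 subunit gene and 104 genes in all. Small p-values above that level were those of UQCRC1 (-0.39), COX6B2 (0.44), NDUFV1 (-0.26) and NDUFS6 (-0.52), all with an adjusted p of 0.897. The subunit median was 0.08 as deposited, -0.03 with the set term and -0.03 in the 13-library set. Complex II summed to 424 ± 21 FPKM (SD, n = 4), with a range of 395.5 to 443.4 FPKM that overlapped PBS, and complex I to 2923 ± 538.5 FPKM, complex IV to 2697 ± 765.5 FPKM and complex V to 3035 ± 310.9 FPKM, each with the 7-library set on top.

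Between agonists no subunit gene was called in limma, against 0.0226% lower and 0.0113% higher of all tested genes for PAM3CSK4 against LPS, 0.0564% and 0.0339% for zymosan against LPS, and 0% for zymosan against PAM3CSK4. With the set term none was called either, against 0.0903% lower and 0.0339% higher, 0.169% and 0.914%, and 0.0226% and 0.0677% of all tested genes. At an unadjusted p under 0.05 the set term gave 7, 27 and 13 subunit genes (838, 1344 and 939 of all 8858), and the subunit medians were 0.09, 0.20 and 0.11, with 0.02, 0.10 and 0.09 over all tested genes. As deposited there were 2 subunit genes at that level, both for zymosan against LPS: ATP5C1 (0.32 ± 0.10, 95% interval 0.11 to 0.54, adjusted p = 0.392) and NDUFA9 (0.27 ± 0.11, adjusted p = 0.565). ATP5C1 was also the gene whose PAM3CSK4 libraries (89.8 to 103 FPKM) and zymosan libraries (99.9 to 116 FPKM) all lay above its LPS libraries (76.7 to 89.2 FPKM), where 1.49% and 4.48% of all tested genes did so.

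Genes that work with the chain were read from lists that, like the subunits, were chosen with earlier results known. Over all tested genes the set term called 40.6%, 40.4% and 28.4% lower with LPS, PAM3CSK4 and zymosan. After rescaling the shares were 13.5%, 13.4% and 9.16%. Among 19 partners, such as cytochrome c and the adenine nucleotide carriers, 8 were called lower with LPS, 5 with PAM3CSK4 and 3 with zymosan (11, 9 and 6 with the set term, 1, 1 and 0 after rescaling), where 27.3%, 22.6% and 14.2% of all tested genes were, and 1 was called higher, SQRDL with PAM3CSK4 (52.8 ± 11.4 against 24.6 ± 6.2 FPKM, SD, n = 4), which feeds electrons from sulfide to ubiquinone. UCP2, an inner-membrane carrier of the uncoupling protein family, was at 308 ± 30.8 FPKM with PBS and 134 ± 18.5 FPKM with LPS (limma log2 difference -1.20, and -0.76 after rescaling, where it was still called). SLC25A5, an ADP and ATP exchanger, was at 530 ± 32.8 FPKM with PBS and 342 ± 14.6 FPKM with LPS, ETFA, an electron transfer flavoprotein, at 41.5 ± 6.09 and 26.0 ± 6.56 FPKM, and CYC1, cytochrome c1 of complex III, at 114 ± 10.1 and 77.6 ± 11.2 FPKM; these 3 were called as deposited and not after rescaling. Among 41 assembly factors 9, 9 and 3 were called lower, shares below those of all tested genes with LPS, PAM3CSK4 and zymosan, 20, 15 and 9 with the set term and 5, 5 and 2 after rescaling. TMEM70, needed to assemble ATP synthase, was at 10.4 ± 1.66 FPKM with PBS and 3.67 ± 0.764, 4.72 ± 0.553 and 5.08 ± 0.921 FPKM with the agonists, and was called with each after rescaling too. ATPAF1, a chaperone of the beta subunit, was at 7.84 ± 1.79 FPKM with PBS and 3.41 ± 1.02, 3.07 ± 1.29 and 4.10 ± 0.955 FPKM, and NUBPL, an iron-sulfur factor of complex I, at 3.82 ± 0.938 FPKM with PBS and 0.814 ± 0.631 FPKM with LPS. SCO1, a copper chaperone of complex IV, rose with LPS and PAM3CSK4, from 24.4 ± 2.38 FPKM to 40.4 ± 3.63 and 36.2 ± 6.12 FPKM.

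The 72 mitochondrial ribosomal proteins translate the subunits encoded in mitochondrial DNA. With LPS, PAM3CSK4 and zymosan 27, 26 and 14 were called lower, against 27.3%, 22.6% and 14.2% of all tested genes. Called higher were 1, 2 and 1, against 5.02%, 5.62% and 4.66%. Their medians of -0.41, -0.44 and -0.33 were close to those of the subunit genes. With the set term 48, 45 and 34 were called lower, against 40.6%, 40.4% and 28.4% of all tested genes. After rescaling, 2, 2 and 0 were called lower, against 13.5%, 13.4% and 9.16%. MRPS26 was at 33.2 ± 3.3 FPKM with PBS and 12.8 ± 3.1 FPKM with LPS. Of 16 tested regulators of mitochondrial biogenesis 1 was called, TFAM, the packaging and transcription factor of mitochondrial DNA. It was lower with PAM3CSK4 and with zymosan, at 13.3 ± 2.99 and 13.1 ± 0.986 FPKM against 18.8 ± 1.97 FPKM. Neither call held after rescaling (-0.19 and -0.29, limma adjusted p = 0.411 and 0.213). With LPS TFAM was at -0.41 and missed the threshold (adjusted p = 0.0503), and with the set term it was called lower (adjusted p = 0.023). The factors whose motifs were searched were not called as deposited: NRF1 was at 7.14 ± 2.17 FPKM with PBS and 5.21 ± 2.7 FPKM with LPS, GABPA at 7.70 ± 2.0 and 4.35 ± 1.74 FPKM, and YY1 at 10.3 ± 1.61 and 12.2 ± 1.27 FPKM. With the set term GABPA was called lower with LPS (-0.50, adjusted p = 0.002) and PAM3CSK4 (-0.40, adjusted p = 0.0084). Neither call held after rescaling (-0.37 and -0.14, limma adjusted p = 0.291 and 0.74). YY1 was called higher with LPS both with the set term (0.31, adjusted p = 0.034) and after rescaling (0.62, adjusted p = 0.0007).

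Called genes of glycolysis were higher as deposited. Of 22 tested, 6 were called higher with LPS, 4 with PAM3CSK4 and 4 with zymosan, where 5.02%, 5.62% and 4.66% of all tested genes were, and none lower. After rescaling 12, 9 and 8 were called higher, against 12.3%, 12.1% and 8.29% of all tested genes. With the set term 11, 8 and 10 were called higher, against 9.74%, 10.5% and 9.56%. Lower with the set term were 1, 4 and 1, against 40.6%, 40.4% and 28.4%. These were HK3 with LPS, GPI, HK3, PFKFB4 and PKM with PAM3CSK4, and PFKFB4 with zymosan. SLC2A1, a glucose transporter, was at 35.7 ± 7.66 FPKM with PBS and 168 ± 57.9, 172 ± 52.5 and 153 ± 33.9 FPKM with LPS, PAM3CSK4 and zymosan. SLC16A3, a lactate exporter, was at 24.7 ± 6.52 FPKM with PBS and 106 ± 31.5, 58.8 ± 25.1 and 58.4 ± 14.8 FPKM. TPI1 (116 ± 12.4 to 223 ± 44.4 FPKM) and the scarce ALDOC (0.391 ± 0.201 to 1.70 ± 1.09 FPKM) rose with LPS. Among 10 mitochondrial antioxidants, SOD2, the matrix superoxide dismutase, rose from 271 ± 33.5 FPKM to 1290 ± 74.5, 1292 ± 158 and 1272 ± 137 FPKM, and PRDX5 from 686 ± 176 to 1330 ± 252, 1298 ± 164 and 1259 ± 139 FPKM. GPX1 fell from 499 ± 39.2 to 309 ± 17.7, 276 ± 25.7 and 314 ± 44.3 FPKM, a fall that was not called after rescaling, and GPX4 fell with LPS and PAM3CSK4, from 122 ± 12.7 to 82.7 ± 16.2 and 83.1 ± 15.7 FPKM, likewise not called after rescaling.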

How the data were processed

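The authors deposited FPKM values for 17310 gene symbols in 20 libraries, made with Smart-Seq2 and Nextera XT, per the labels' protocols. Per the submitters' processing notes, the tools include Cufflinks 2.2.1, HISAT2 2.0.5.1, featureCounts 1.4.6 and DESeq2, with no role given, and the build is rn6; the annotation is not stated there. Members and lists were chosen with earlier results of these data known.

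Values were tested as log2(FPKM + 1), so fold changes of low genes are understated, over the 8858 genes that reached 1 FPKM in 4 or more libraries. A mean for each of the 5 groups was fitted to all 20 libraries in limma 3.58.1 (R 4.3.3) with a mean-variance trend, and two-sided p-values got a Benjamini-Hochberg adjustment per contrast over all tested genes; an adjusted p under 0.05 was called. Adjusted p-values in the text are from limma. Low FPKM values moved in whole-fragment steps (84.5 to 93.2% of low-gene ratios were ratios of whole numbers up to 8, within 0.0015 on the log2 scale), which put library depth between 0.999 and 1.79 times that of PBS replicate 3. Depth was 1.26 to 1.68 in the 7-library set and overlapped that of the others. For 60 tested members whole fragments were recovered within 0.03 fragments, with a median lowest count of 467, and 55 had at least 100 fragments in every library. No count test was run on FPKM. Deviations from the group means of same-numbered libraries correlated in all 4 pairs for PBS and PAM3CSK4 (r = 0.375 to 0.741), PBS and zymosan (0.318 to 0.824) and PAM3CSK4 and zymosan (0.525 to 0.792), and were taken as paired there; the pairing comes from the data, since the labels give only the number. For PBS with LPS (-0.186 to 0.545) or morphine (-0.139 to 0.762) they were not.

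Named genes are core and paralogous subunits, together with COX5A and COX5B. Also named are the 5 largest called changes in each direction per contrast with a higher mean of at least 5 FPKM. With under 5 called, the 5 smallest p-values were taken instead. Up to 4 called genes of each other list were added. ATP5D, ATP5O, COX7B, UQCR10, NRF1, GABPA, YY1, HK3, GPI, PFKFB4 and PKM, beyond that rule, and the promoters shown were chosen after values were seen. The values of 1 gene that this rule names are not reported here.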

Additional observations from a re-analysis of the deposited data

Results flagged for a closer look

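In groups of 4 libraries, the gap between the extreme library and its nearest neighbour, as a share of the group's range, was set against the 95% critical value of Dixon's test for the 5 complex sums and the 31 members described singly. Of 180 such tests 22 passed, where chance passes about 1 in 20, and 20 of the 22 fell on a replicate 1 library, all of which belong to the 7-library set. These are 1 pattern rather than 22, since the same libraries recur.

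PBS replicate 1 was high for the complex I sum (3468 FPKM, with the other 3 libraries at 2449 to 2574 FPKM), the complex IV sum (3287 FPKM), ATP5D (230 FPKM), COX6A1 (582.6 FPKM), NDUFV2 (90.34 FPKM) and UQCR10 (251.7 FPKM), and low for SDHA (36.87 FPKM, with the others at 60.9 to 62.1 FPKM). PAM3CSK4 replicate 1 was low for the complex II sum (252.3 FPKM, with the others at 320.9 to 330.1 FPKM), ATP5B (230.7 FPKM) and UQCRC1 (76.87 FPKM), and high for ATP5G1 (132.6 FPKM), COX4I1 (356 FPKM), COX6A2 (7.636 FPKM), NDUFS7 (112.8 FPKM) and UQCR10 (297.8 FPKM). Zymosan replicate 1 was high for ATP5D (233.9 FPKM), ATP5G1 (131.4 FPKM), COX6A1 (513 FPKM) and NDUFAB1 (15.92 FPKM), and morphine replicate 1 was high for ATP5D (233.4 FPKM). Outside replicate 1, ATP5C1 was low in PBS replicate 3 (144.7 FPKM, with the others at 161.1 to 163.5 FPKM), and NDUFS6 was at 0.5898 FPKM in morphine replicate 2 and listed at 0 in the other 3 morphine libraries.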

How the results depend on the processing

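Counts of members called lower moved most with the scaling and the library sets. With LPS they were 30 as deposited, 4 after median-ratio rescaling, 62 with the library-set term and 59 in the 13-library set alone. In the same order they were 27, 3, 57 and 49 with PAM3CSK4, and 9, 0, 41 and 37 with zymosan. With only the 2 groups in the fit the zymosan count was 16, given here without the share of all tested genes. Rescaling with the set term, added after the data were seen, gave 17 lower with zymosan and 4, 4 and 3 higher with LPS, PAM3CSK4 and zymosan, and the set term alone gave 1 higher with PAM3CSK4. Leaving out 1 library at a time gave 22 to 30 (LPS), 18 to 26 (PAM3CSK4) and 7 to 9 (zymosan) called lower, each lowest without PBS replicate 1, and 0 for every other count. The other 71 of 88 counts under these settings were within 1.5 times the value reported. After rescaling, the LPS median went to -0.02 over all members and to -0.08, -0.16, 0.23, 0.20 and -0.06 for complexes I to V.

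With the replicate block 42 members were called lower with PAM3CSK4 and 27 with zymosan, against 32.3% and 22.1% of all tested genes. In these comparisons with PBS, same-numbered libraries correlated in every pair. With LPS 1 of 4 pairs did not, and 42 members were called lower with the block. The share of all tested genes is not given for that LPS count, so nothing about the members is read from it. The best partner had the same number in 64 of 80 checks over all groups. Of the member calls given singly none was lost with the block.

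Of 87 single-member values, directions reversed after rescaling for COX7A2 with LPS (0.0078) and zymosan (0.0118), NDUFS7 with PAM3CSK4 (0.017), SDHC with LPS (0.0397) and zymosan (0.0196) and COX4I1 with LPS, PAM3CSK4 and zymosan (0.194, 0.0907 and 0.0148). With the set term added, the zymosan values of COX7A2 (0.0118), SDHC (0.0196) and COX4I1 (0.0148) and the PAM3CSK4 values of NDUFS7 (0.017) and COX4I1 (0.0907) were also reversed. Leaving out 1 library at a time, UQCR10 ranged from -0.0685 (without PAM3CSK4 replicate 1) to 0.349 with PAM3CSK4 and from -0.0283 (without zymosan replicate 1) to 0.307 with zymosan, and ATP5D from -0.0384 (without PAM3CSK4 replicate 1) to 0.128 with PAM3CSK4, each highest without PBS replicate 1. None of these values was called. Of 45 calls of single members 12 were lost without 1 library or another: ATP5B with PAM3CSK4 without PAM3CSK4 replicate 1 (adjusted p = 0.0753); COX6A2 (0.0755 to 0.0778) and NDUFA12 (0.0565 to 0.0668) with LPS without LPS replicate 4 or, in turn, PBS replicates 4 and 1; with LPS also COX7B (without replicate 1 or 4 of PBS or 3 or 4 of LPS, to 0.0988), NDUFS7 (any of PBS or 3 or 4 of LPS, to 0.149) and SDHA (2, 3 or 4 of PBS or 1 or 2 of LPS, to 0.116); with PAM3CSK4 COX7A2 (1 or 4 of PBS or 2, 3 or 4 of PAM3CSK4, to 0.0979), NDUFA8 (1 or 3 of PBS or 2 or 4 of PAM3CSK4, to 0.111), UQCRC2 (2, 3 or 4 of PBS or 1 of PAM3CSK4, to 0.0907) and UQCRFS1 (any of PBS or 1, 2 or 4 of PAM3CSK4, to 0.0885); and with zymosan NDUFV1 (any of the 8, to 0.123) and UQCRFS1 (any of PBS or 1, 2 or 4 of zymosan, to 0.104). The other 33 were kept. The cause was not tested.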
